A study of Mus musculus with 6 samples.

Results

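The lung cells described here carried transcripts of the type 2 gate together with *Krt8* and *Cldn4*, and they came from 6 10x Genomics 3′ single-cell RNA-Seq (scRNA-Seq) libraries of mouse lung. They were selected on counts of unique molecular identifiers (UMIs), each of which stands for 1 captured transcript. Barcodes were kept with at least 500 genes, at least 1000 UMIs, and under 15% mitochondrial UMIs. The gate asked for a UMI of at least 3 of *Sftpc*, *Lamp3*, *Slc34a2*, and *Etv5*, with 0 UMIs of *Ptprc*, *Cdh5*, *Col1a2*, and *Foxj1*. Gated cells with at least 1 *Cldn4* UMI and at least 2 *Krt8* UMIs are called Krt8+ Cldn4+ cells, or members. There were 274 of them among 11414 gated cells, 44096 kept barcodes, and 88578 barcodes in all. Gated cells without *Cldn4* and with under 2 *Krt8* UMIs, 5772 in number, are called reference cells. The remaining 5368 gated cells, of which 5336 had 2 or more *Krt8* UMIs but no *Cldn4*, belonged to neither set.

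The libraries were made from magnetically enriched CD45- lung cells of mice on a C57BL/6J background. The mice were 10 to 12 weeks of age, 2 weeks after the 4 tamoxifen doses. By the labels, 4 libraries came from littermate controls, whose alleles are not stated for the scRNA-Seq mice. The other 2, labelled Zip8AEC2, came from mice with a floxed *Zip8* (*Slc39a8*) gene, a tamoxifen-inducible Cre under the SFTPC promoter, and a Rosa26-tdTomato reporter, so recombination is limited to cells in which that promoter is active. The number of mice behind a library is not stated, so n counts libraries and p-values measure the spread between them. Control libraries 1 to 4 held 105774150, 114018446, 118771907, and 93852253 UMIs, and Zip8AEC2 libraries 1 and 2 held 107957330 and 103337822. Members numbered 38, 9, 35, and 34 in control libraries 1 to 4 and 112 and 46 in Zip8AEC2 libraries 1 and 2. A doublet caller marked 29 of the 274 members (10.6%) and 12.2% of gated cells. Of the members, 237 had a barcode that another library also held among all its barcodes, kept or not, and for 2 of them the other library held more UMIs. Over all libraries, 21091 of the 44096 kept barcodes were shared in this way.

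Alveolar epithelial type 2 cells (AEC2s) make surfactant and renew the gas-exchange surface, on which they give rise to flat type 1 cells (AEC1s). After lung injury, some AEC2s are known to pass through a transitional state in which keratin 8, a filament protein of simple epithelia, and claudin-4, a sealing protein of tight junctions, are raised while surfactant genes fall. Both genes are also expressed in healthy airways, where club cells secrete secretoglobin 1A1 (*Scgb1a1*).

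*Krt8* (ENSMUSG00000049382) lies on chromosome 15 of mm10 from 101996698 to 102004482, *Krt18* (ENSMUSG00000023043), whose product pairs with keratin 8, on chromosome 15 from 102028180 to 102032027, and *Cldn4* (ENSMUSG00000047501) on chromosome 5 from 134945119 to 134946934. The 250 bases before the start of each gene in RefSeq (GRCm38.p6) are shown for *Krt8* and *Cldn4*, which chose the cells, and for *Krt18*. They are in lower case from 5′ to 3′ on the strand of the gene, with motif matches in capitals. The windows are chr15:102004343-102004592 on the minus strand for *Krt8*, chr15:102027966-102028215 on the plus strand for *Krt18*, and chr5:134946935-134947184 on the minus strand for *Cldn4*.
Krt8: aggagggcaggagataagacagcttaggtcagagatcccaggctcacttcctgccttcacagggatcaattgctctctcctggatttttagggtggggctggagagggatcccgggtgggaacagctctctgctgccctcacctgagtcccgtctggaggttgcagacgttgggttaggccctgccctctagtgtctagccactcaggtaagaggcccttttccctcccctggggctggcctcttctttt
Krt18: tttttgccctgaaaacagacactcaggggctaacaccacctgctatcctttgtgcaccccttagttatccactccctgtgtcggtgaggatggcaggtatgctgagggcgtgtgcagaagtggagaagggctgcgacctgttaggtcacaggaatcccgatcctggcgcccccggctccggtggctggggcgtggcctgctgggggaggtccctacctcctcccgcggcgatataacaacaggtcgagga
Cldn4: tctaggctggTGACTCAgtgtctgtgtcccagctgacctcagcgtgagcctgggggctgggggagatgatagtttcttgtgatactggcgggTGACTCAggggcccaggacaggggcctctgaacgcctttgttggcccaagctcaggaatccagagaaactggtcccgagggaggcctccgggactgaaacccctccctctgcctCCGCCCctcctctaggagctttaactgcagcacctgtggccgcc
Searched on both strands were the AP-1 motif TGANTCA, the TEAD motif GGAATG, the GC box GGGCGG, and the TATA box TATAAA. *Cldn4* held the AP-1 letters TGACTCA at 240 and at 158 bases before the start, and the GC box on the reverse strand at 44 bases. The *Krt8* and *Krt18* windows held none of the 4 motifs. Of 32851 promoters of the same length, 6.75% held the AP-1 motif, 12.6% the TEAD motif, 32.7% the GC box, and 12.4% the TATA box. A match describes the letters and is not evidence of binding.

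The cells were put forward as transitional AEC2s marked by *Krt8*, *Cldn4*, and *Sftpc*, and for most of them the data went against that name. In 213 of the 274 members, *Scgb1a1* made up 10% or more of all UMIs, from 12.9% to 74.3% with a median of 55.0%, while *Sftpc* stood at a median of 0.0926%. In these Scgb1a1-led members *Scgb3a2* and *Cyp2f2*, a secretoglobin and a cytochrome P450 of club cells, reached medians of 452 and 409 UMIs per cell. Only 43 members held more *Sftpc* than *Scgb1a1*, with medians of 10.5% and 0.885% of UMIs, and these are called Sftpc-led. The other 18 were led by neither and held *Sftpc* at a median of 0.139%. The 10% line was set after the values were seen, so levels in the 3 kinds are described and not tested. Tests of shares that use this line are post hoc. It fell in an empty stretch, since 41 members held under 1% *Scgb1a1*, 20 held 1% to 5%, none held 5% to 10%, and 2 held 10% to 20%. Control libraries 1 to 4 gave 26, 6, 27, and 30 Scgb1a1-led members and Zip8AEC2 libraries 1 and 2 gave 89 and 35, so they were the larger part of the members in every library. Of the reference cells, 5128 were Sftpc-led, at a median of 16.3% *Sftpc*, and 599 held 10% or more *Scgb1a1*, at a median depth of 2089 UMIs.

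**Figure D1:**
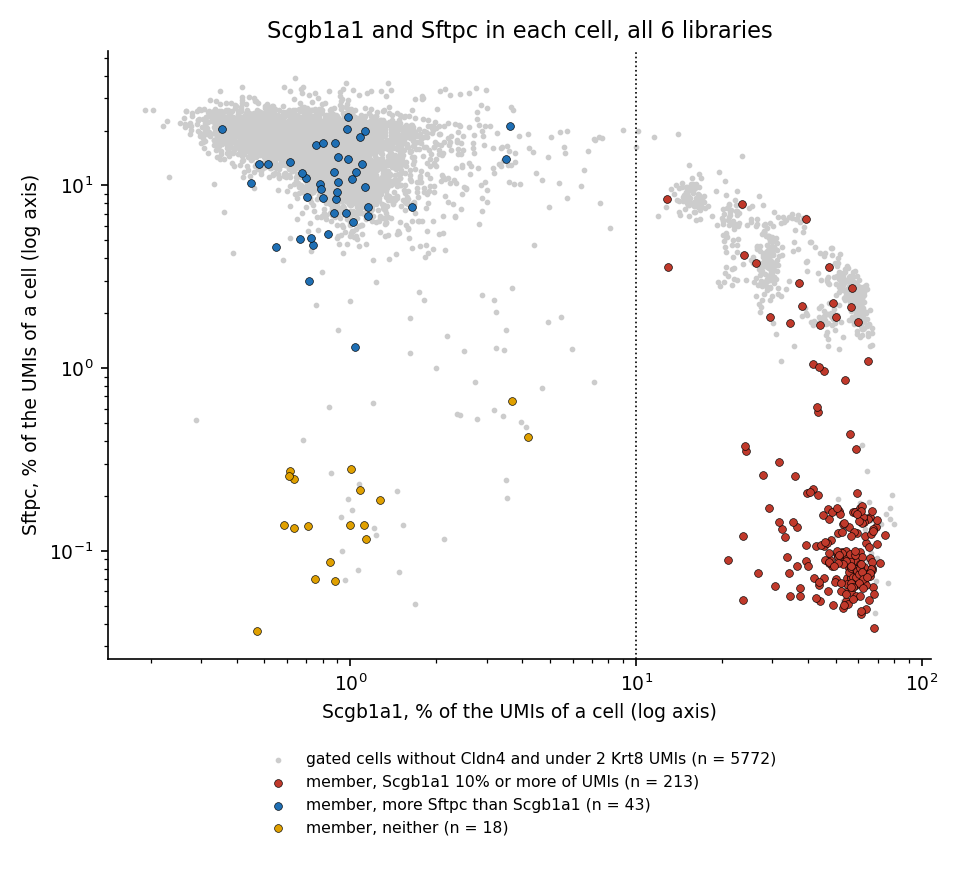
Share of UMIs from Scgb1a1 (x axis, %, log scale) and from Sftpc (y axis, %, log scale) in each cell, with reference cells in grey and the 3 kinds of members in color; the dotted line marks 10% Scgb1a1. The 213 Scgb1a1-led members lie to the right of the line, and 43 members lie among the reference cells with high Sftpc.

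Free RNA in a droplet library gives every barcode some UMIs of abundant genes, so the gate was examined in cells that should lack it. In cells with endothelial markers, the median share of *Sftpc* was 0.0737% to 0.349% of UMIs over the 6 libraries, and that of *Scgb1a1* was 0.758% to 1.45%. The 0.0926% *Sftpc* of the Scgb1a1-led members therefore lay within the endothelial range, and the 0.885% *Scgb1a1* of the Sftpc-led members did too. In cells with fibroblast markers, at median depths of 6426 to 11593 UMIs, the median shares were 0.0570% to 0.217% *Sftpc* and 0.459% to 0.895% *Scgb1a1*. These are shares in cells of unlike depth, so a like share is not a like count. The median number of *Sftpc* UMIs in Scgb1a1-led members was 56. Other gate genes were examined with each cell thinned to 5000 UMIs. Members had to carry at least 3 of the 4 gate genes, so the rule itself raises these shares in members. Endothelial cells were taken only with fewer than 3 gate genes and under 10% *Scgb1a1*, which lowers the shares in them. A *Lamp3* UMI, from a lysosomal membrane protein of AEC2s, was then found in 6.67% to 30.8% of Scgb1a1-led members per library, in 87.5% to 100% of Sftpc-led members, and in 82.4% to 100% of matched reference cells. In endothelial cells it was found in 4.00% to 8.33%. A *Slc34a2* UMI, from a phosphate transporter of AEC2s, was found in 30% to 51.7% of Scgb1a1-led members, in 87.5% to 100% of Sftpc-led members, and in 10.8% to 25.0% of endothelial cells at the same depth. The median depths before thinning were 54545 UMIs in Scgb1a1-led members, 14246 in Sftpc-led members, and 2865 to 5518 in endothelial cells. The UMIs that make a member, of *Krt8* and *Cldn4* together, were found in 0 of 375, 761, 637, 326, and 268 endothelial cells and in 1 of 401 in control library 3. In cells with fibroblast markers they were found in 0.0881% to 0.577% per library.

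Members were also far deeper than the cells they were to be compared with. Their median was 35745.5, 47163, 54069, and 47612.5 UMIs in control libraries 1 to 4 and 46420.5 and 62742 in Zip8AEC2 libraries 1 and 2. The reference cells had medians of 6735 to 12253.5. The reference cell nearest in depth was taken for each member in the same library, without reuse, and these matched cells had medians of 21570.5, 21844, 20298, 23050, 17325.5, and 19420.5. Matching thus narrowed the gap without closing it, since 184 members but only 12 reference cells held over 35000 UMIs. Within 10% of the depth of a member, a matched cell could be found for 88 members, of which 36 were Scgb1a1-led and 37 Sftpc-led. Of the 274 matched cells, 23 held 10% or more *Scgb1a1*.

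**Figure D2:**
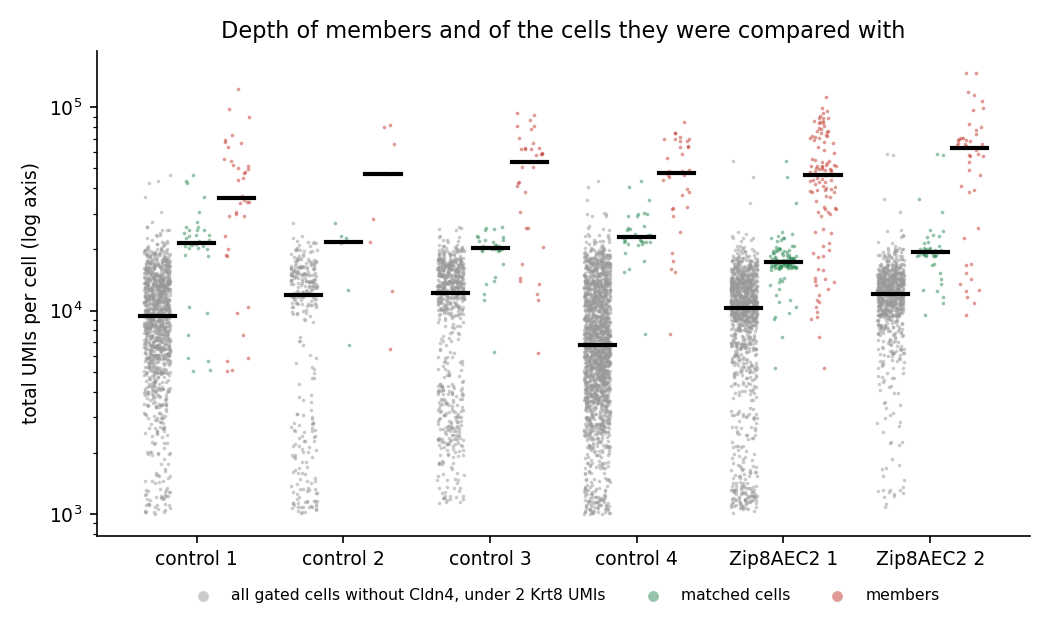
Total UMIs per cell (log axis) in reference cells (grey), the matched cells among them (green), and members (red) of each library, with black bars at the medians. The members' medians run from 35745.5 to 62742 UMIs and those of the matched cells from 17325.5 to 23050.

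The genes that chose the members are given as a description. Levels are given as CPM, a gene's share of all UMIs on a common scale, in the UMIs summed over the cells of a library with library sizes adjusted by TMM normalization. *Krt8* stood at 1061, 772, 793, and 562 CPM in members of control libraries 1 to 4 and at 475 and 565 in those of Zip8AEC2 libraries 1 and 2, and at 23.6 to 27.1 in matched cells. *Cldn4* stood at 105, 52.3, 57, 55.0, 65.7, and 99.1 CPM in the members, in the same order, and at 0 in the matched cells by the rule. The median number of *Krt8* UMIs per cell was 17 in Scgb1a1-led members, 5 in Sftpc-led members, and 30 in those led by neither, and that of *Cldn4* was 2, 1, and 5, so *Cldn4* often passed on very few UMIs. At the edge of the rule, 12 gated cells held exactly 1 *Cldn4* and 2 *Krt8* UMIs and 19 held 1 of each, with median depths of 13727.5 and 7276 UMIs. Of the gate genes, *Sftpc* was at 8014 to 17993 CPM in members and 73509.5 to 155097 in matched cells, *Lamp3* at 119.7 to 178 and 1038 to 1283, *Slc34a2* at 408 to 709 and 3712 to 4464, and the transcription factor gene *Etv5* at 22.7 to 61.5 and 187 to 380.1. *Ptprc*, *Cdh5*, *Col1a2*, and *Foxj1* were at 0 in both, as the gate requires.

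Members were compared with matched cells to ask which other genes differed between cells with and without *Krt8* and *Cldn4*, at a depth as near as the libraries allowed. In the sums of each library, 1578 of 7196 genes were higher in members (21.9%) and 1597 were lower (22.2%; edgeR quasi-likelihood test with the library as a block, Benjamini-Hochberg adjusted p under 0.05). Because members and matched cells were set apart by UMIs of the same cells, any gene that differs between the kinds of cells in each set had to differ here. Of the members 213 were Scgb1a1-led and of the matched cells 23, and in sums over such mixtures a lower level per cell and fewer cells of a kind cannot be told apart. A scaling by total UMIs, an alternative added once the data had been seen, moved the median of all genes from -0.00 to -0.69 on the log2 scale, with 423 genes higher and 4987 lower, so directions are given relative to the median gene. The counts of gene lists below are to be read beside these shares of all genes.

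Secreted products of the airway epithelium led the genes that were higher. *Reg3g*, a secreted antibacterial lectin, stood at 1459, 1597, 1111, and 1253 CPM in members of control libraries 1 to 4, at 480.1 and 441 in those of Zip8AEC2 libraries 1 and 2, and at 1.11 to 4.51 in matched cells. The fitted difference was 8.08 on the log2 scale with a standard error of 0.20 (edgeR quasi-likelihood adjusted p = 1.13e-14), resting on 8376 UMIs in members and 21 in matched cells. A minority of the cells carried it, since 85 of 274 members held a *Reg3g* UMI, 54 held 10 or more, and the median was 0. *Tff2*, a mucus-associated trefoil peptide, was at 1027, 1083, 359, 595, 443, and 391 CPM in members and at 1.45 to 4.43 in matched cells, a log2 difference of 7.75 (standard error 0.17). Groups did not overlap for either gene, and the highest matched level lay far under the lowest level in members. *Bpifb1*, which encodes a secreted host-defense protein of airways, was higher by 8.18 and *Lypd2* by 4.91 on the log2 scale. All 16 genes of a list of club and secretory markers rose, with a median log2 fold change of 4.32. They include *Scgb1a1* itself (3.87), *Scgb3a2* (4.76), *Scgb3a1* (7.33), and *Chad* (4.79). *Scgb1a1* stood at 484099 to 745771 CPM in members, and the list summed to 580161 to 824548 CPM in members and 7658 to 164080 in matched cells.

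The remaining genes among the 12 with the smallest adjusted p were, like all 12, picked only from genes that rose in all 6 libraries. *S100a6*, a calcium-binding protein, was at 302 to 1168 CPM in members and 4.15 to 26.7 in matched cells (log2 fold change 4.93). *Krt19*, a keratin of simple epithelia, was at 710.2, 320.0, 489, and 473 CPM in members of control libraries 1 to 4, 448 and 440.1 in those of Zip8AEC2 libraries 1 and 2, and 8.30 to 59.5 in matched cells (log2 fold change 4.11). *Cyp2a5*, a cytochrome P450, rose by 6.57 on the log2 scale, *AW112010* by 4.66, *Qsox1*, a sulfhydryl oxidase of secretory cells, by 3.59, the stress-response gene *Ier3* by 3.04, the tetraspanin gene *Tspan1* by 2.80, and the mucosal chemokine gene *Cxcl17* by 2.79. None of these groups overlapped.

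**Figure D3:**
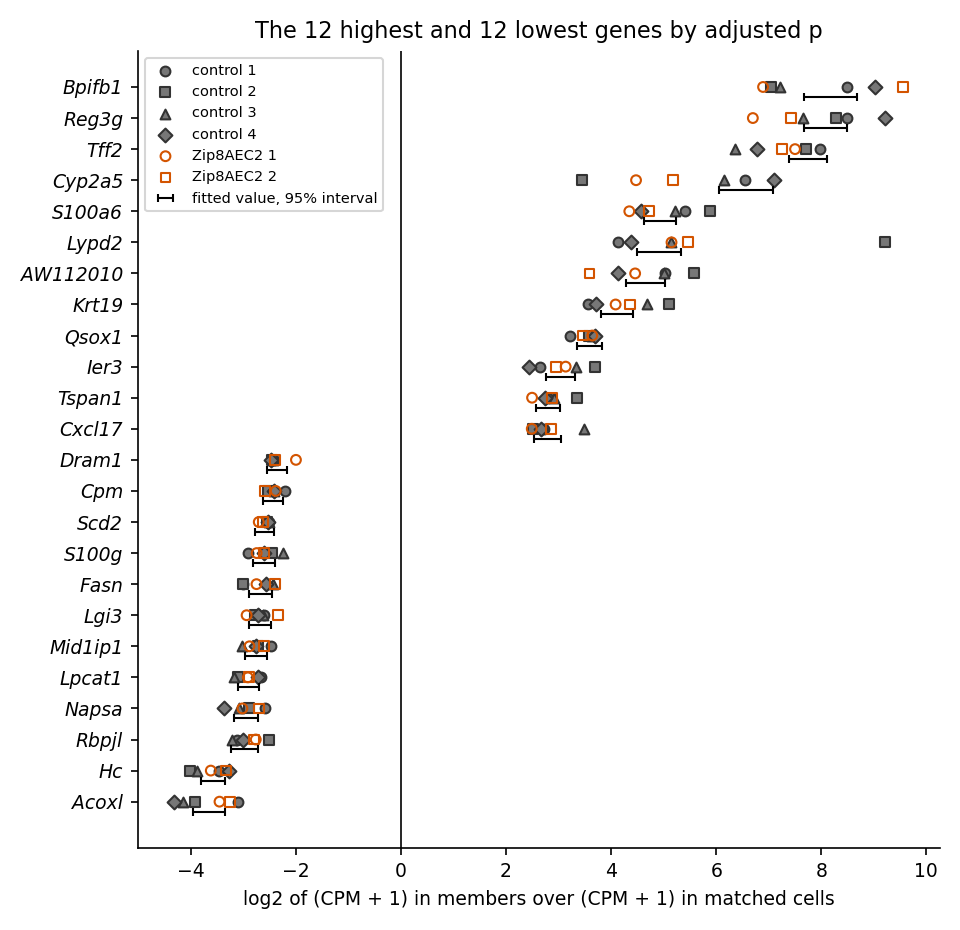
Log2 of (CPM + 1) in members over (CPM + 1) in matched cells of the same library (x axis) for the 12 higher and 12 lower genes with the smallest adjusted p that moved the same way in all 6 libraries; filled symbols are control and open symbols Zip8AEC2 libraries, and black bars give the 95% interval of the fitted value. Every library lies on the same side of 0 for each gene, from Bpifb1, fitted at 8.18, to Acoxl, fitted at -3.65.

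Genes of the transitional state were higher as a group, with 19 of the 23 tested up, 1 down, and a median of 1.44 (15 and 5 with a median of 0.74 with scaling to total UMIs). *Krt18* stood at 1333, 815, 900.3, and 561 CPM in members of control libraries 1 to 4, at 561 and 649.6 in those of Zip8AEC2 libraries 1 and 2, and at 98.1 to 133 in matched cells, without overlap. The fitted log2 difference was 2.73 with a standard error of 0.13 (edgeR adjusted p = 2.4e-11). The other 7 genes of the list of 30 were too low to be tested. Over keratins and the actin cytoskeleton, 10 of 16 tested genes rose and 1 fell, with a median of 0.54 (5 and 6 with a median of -0.14 with that scaling). *Krt7*, a keratin of glandular epithelia, rose by 2.16, and *Actg1*, a cytoplasmic actin gene, by 0.98. Levels pooled over the libraries, per 1000000 UMIs other than *Scgb1a1* and *Sftpc*, follow without a test. Reference cells with 10% or more *Scgb1a1* held *Krt18*, *Krt19*, *Krt7*, and *Lgals3* at 488, 373, 102, and 195. These lay between the 192, 30.6, 52.2, and 49.9 of Sftpc-led reference cells and the 1129, 792, 196, and 250 of Scgb1a1-led members. *Cdkn1a* did not, at 99.5, 87.3, and 24.6 in that order. What part of the member levels goes with *Scgb1a1* was not tested.

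AEC2 genes were lower without exception. All 26 listed genes outside the gate fell, with a median of -1.97, which was -2.64 with scaling to total UMIs. *Hc*, which encodes complement C5, was at 96.9, 95.4, 84.8, and 106 CPM in members of control libraries 1 to 4, at 113 and 133 in those of Zip8AEC2 libraries 1 and 2, and at 1029.9 to 1559.8 in matched cells. It fell by 3.59 on the log2 scale (standard error 0.11, edgeR adjusted p = 1.88e-13). *Lpcat1*, an enzyme of surfactant phospholipid synthesis, was at 132 to 185 CPM against 1081 to 1379 (log2 fold change -2.91). *Napsa*, a protease that matures surfactant proteins, changed by -2.95, the calcium-binding *S100g* by -2.61, and the lysosomal *Dram1* by -2.36. Further down the 12 lower genes were *Acoxl* (-3.65), *Rbpjl* (-2.98), the lipogenic regulator *Mid1ip1* (-2.76), *Lgi3* (-2.68), and the carboxypeptidase gene *Cpm* (-2.43). All of these were lower in members of every library, which the choice of the 12 required.

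Lipid synthesis moved with them, since 22 of 24 tested genes fell and none rose, with a median of -1.76. *Scd1*, a fatty acid desaturase, was at 154 to 992 CPM in members and 4024 to 10946 in matched cells (log2 fold change -3.53). *Fasn*, the fatty acid synthase gene, was at 56.5 to 108 CPM against 441 to 734 (-2.67), and *Scd2* and the elongase gene *Elovl1* changed by -2.59 and -2.87. Antigen presentation by MHC class II, a feature of AEC2s, was lower too, with all 6 tested genes down and a median of -2.43. *H2-Aa* was at 42.8 to 154 CPM in members and 514 to 849 in matched cells (-2.74), *Cd74*, the invariant chain, changed by -2.35, *H2-Ab1* by -2.43, and *H2-DMa* by -2.56. Of 12 class I and interferon genes, 7 fell and 2 rose, with a median of -0.52 (9 and 1 with a median of -1.18 with scaling to total UMIs). Among them *B2m*, *H2-K1*, and *H2-D1* changed by -0.88, -0.82, and -0.68, and *Ifitm3*, an antiviral membrane protein, by 2.60.

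Stress and signaling genes were mixed. Of 25 immediate-early and heat shock genes, 21 rose and none fell, with a median of 0.89 (11 and 6 with a median of 0.22 with scaling to total UMIs). After *Ier3* the smallest p-values were those of *Cyr61*, a matricellular target of mechanical signals (1.85), the small heat shock gene *Hspb1* (1.97), and *Klf6* (1.20). Of 15 NF-κB and inflammatory genes, 9 rose and 2 fell, with a median of 0.74 (4 and 5 with a median of 0.07 with that scaling). *Nfkbia*, the inhibitor of NF-κB, was at 169 to 607 CPM in members and 42.1 to 137 in matched cells, and *Lcn2*, an iron-sequestering defense protein of AEC2s and airways, changed by -2.17. *Tnfaip3* and *Sod2* rose by 1.51 and 0.74. In the list of the ER and integrated stress responses, 7 of 16 rose and none fell, with a median of 0.17 (2 and 9 with a median of -0.51 with that scaling). The transcription factor genes *Cebpb* (1.59) and *Atf3* (1.37) led it, followed by *Calr* (0.61) and *Atf4* (0.49), for which scaling to total UMIs gave -0.06 and -0.19.

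Of 16 p53 targets, 7 rose and none fell, with a median of 0.34. *Perp*, a desmosome protein, rose by 1.61, *Plk2* by 1.15, *Bax*, an effector of apoptosis, by 0.99, and *Rps27l* by 0.65, which was -0.02 with scaling to total UMIs. The p53 target and cell cycle inhibitor *Cdkn1a*, chosen after its values were seen, did not pass the test (log2 fold change 0.22, edgeR adjusted p = 0.375). AEC1 genes went both ways, with 10 of 19 higher, 5 lower, and a median of 0.34. *Hopx*, a regulator expressed in AEC1s, was at 76.9 to 125 CPM in members and 12.4 to 64.6 in matched cells (1.76), and *Sec14l3* rose by 2.36. The AEC1 receptor gene *Ager*, also chosen after its values were seen, was at 217 to 463 CPM in members and 579.7 to 951 in matched cells (-1.11). With scaling to total UMIs, 4 p53 targets were higher and 7 lower (median -0.35), and 8 AEC1 genes were higher and 10 lower (median -0.33).

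Among junction proteins, 6 of 14 tested claudin and tight junction genes rose and 1 fell, with a median of 0.22 (2 and 7 with a median of -0.47 with scaling to total UMIs). *Cldn7* was at 219 to 317 CPM in members and 95.9 to 155 in matched cells (1.09), *Cgn*, which encodes cingulin, rose by 1.12, and the epithelial adhesion gene *Epcam* by 0.70. *Cldn18*, the claudin of the alveolus, was at 38.4 to 349 CPM against 545 to 656 (-1.74). Of the EGF family, 3 of 7 rose and none fell, with a median of 0.38 (1 and 3 with a median of -0.32 with that scaling). The ligand genes were *Hbegf* (1.54), *Areg* (0.78), and *Btc* (0.93), and the receptor gene *Erbb2* was at 0.38 without passing (edgeR adjusted p = 0.0847). In the list of TGF-β, integrins, and matrix, 4 of 16 rose and 6 fell, with a median of -0.20 (4 and 11 with a median of -0.90 with that scaling). *Thbs1*, which encodes a matrix protein that activates latent TGF-β, rose by 2.29, while the basement membrane genes *Col4a1* and *Col4a2* changed by -1.59 and -1.63. Of 18 cell cycle genes only 4 could be tested, with 2 higher, none lower, and a median of 0.16 (1 and 2 with a median of -0.52 with that scaling). The G1 cyclin genes *Ccnd2* and *Ccnd1* rose by 1.22 and 0.57, the latter at -0.10 with scaling to total UMIs, while *Tyms* and *Pcna* were at -0.26 and -0.25 and did not pass.

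Zinc handling was the subject of the study. Of 13 tested zinc genes, 1 rose and 3 fell, with a median of -0.15 (none and 10 with a median of -0.83 with scaling to total UMIs). Over all 7196 tested genes, 21.9% were higher and 22.2% lower, and 423 and 4987 were with that scaling. The counts of lower zinc genes were thus near the shares over all genes. *Slc39a8*, which encodes the zinc importer ZIP8, was at 28.6, 52.3, 33.5, and 24.5 CPM in members of control libraries 1 to 4, at 43.0 and 36.2 in those of Zip8AEC2 libraries 1 and 2, and at 167 to 207 in matched cells. The fitted log2 difference was -2.33 with a standard error of 0.12 (edgeR adjusted p = 6.43e-11), so members as a whole held a lower level than matched cells in every library. With 213 members and 23 matched cells led by *Scgb1a1*, this value does not give the difference in Sftpc-led members. The zinc transporters *Slc30a7* and *Slc30a9* changed by -1.21 and -0.51, and the metallothionein gene *Mt2* by 1.07. Of 12 genes named in the study for AEC2s that could be tested, 4 rose and 6 fell, with a median of -0.57 (3 and 8 with a median of -1.28 with that scaling). *Abca3*, a lipid transporter of lamellar bodies, changed by -1.94, *Chil1* by -1.89, the surfactant protein genes *Sftpa1* and *Sftpb* by -1.62 and -1.61, and the antioxidant genes *Nqo1*, *Gclm*, and *Gsr* by 3.53, 1.69, and 1.14. *Nampt*, an enzyme of NAD synthesis, rose by 0.69. *Sirt1* and *Slc39a7* were at -0.33 and -0.15 without passing. *Pdpn*, *Nnmt*, *Kynu*, and *Has2* were too low to be tested.

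Markers of other cells differed in how far they reached. Ciliated markers summed to 404.7 to 739.8 CPM in members and 83.0 to 221.6 in matched cells, most of it *Sec14l3*. Of these 12 markers, 3 were tested, of which *Sec14l3*, also in the AEC1 list, rose, *Dynlrb2* fell by 0.64, and *Tppp3* did not pass (0.25). Of 10 endothelial markers only *Kdr* was tested, at 33.0 to 120.0 CPM in members and 2.26 to 21.5 in matched cells (2.96), while *Pecam1*, *Cldn5*, and *Ramp2* stayed at 5.88 CPM or less in members. Fibroblast and mural markers summed to 140.4 to 427.7 CPM in members and 164.3 to 547.6 in matched cells, with *Mgp* the most abundant, and 3 of 5 tested rose and 1, *Npnt* (-1.88), fell, with a median of 0.42 (none and 1 with a median of -0.24 with scaling to total UMIs). *Dcn*, a proteoglycan of fibroblasts, rose by 0.68 and was -0.22 with matching within 10% of depth. Mesothelial markers summed to 20.7 to 104.3 CPM in members, most of it *Msln*, with *Wt1* at 1.23 or less. Basal cell markers summed to 241.6 and 126.6 CPM in control libraries 1 and 4 and to 3.1 to 26.4 elsewhere, led by *Krt15* at 189 CPM in control library 1, while *Krt5* and *Krt14* stood at 8.73 or less. Macrophage and neutrophil markers summed to 15.4 to 34.9 CPM with 5 of 17 genes at 0, and lymphocyte markers to 0 to 12.1 with 5 of 8 at 0, and *Cd79b*, the 1 tested, was lower (-1.61). Erythroid markers summed to 1848.2 CPM in members of control library 4 and to 7.1 to 89.2 elsewhere, led by *Hbb-bs*, which did not pass (log2 fold change 0.27, edgeR adjusted p = 0.843). Without control library 4, *Hbb-bs* was at -1.89 and passed as lower (edgeR adjusted p = 0.0274). What part these markers have in the other differences was not tested.

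Matching within 10% of depth, possible for 88 members, tested fewer genes (3301, with 170 higher and 205 lower) and moved several lists. AEC1 genes were then higher in 8 of 16 and lower in none (median 0.76), and class I and interferon genes were lower in none of 8 and higher in 1 (median -0.15). In the list of TGF-β, integrins, and matrix, 2 of 8 were higher and none lower, and the median turned to 0.17. Transitional genes were higher in 13 of 18 and lower in none (1.88), keratin and actin genes in 8 of 12 (0.77), p53 targets in 5 of 7 (0.86), and club and secretory markers in 8 of 12 (1.34). AEC2 genes were lower in 21 of 26 (-1.17), lipid genes in 12 of 22 (-0.87), and MHC class II genes in 4 of 6 (-0.89), with none higher. Immediate-early and heat shock genes were higher in 9 of 24 (0.59), NF-κB genes in 2 of 7 with 1 lower (0.31), and ER stress genes in 1 of 10 (0.18). Zinc genes were higher in 1 and lower in 1 of 6 (-0.23), and the genes named in the study were lower in 5 of 9 with none higher (-0.84). Of the claudin list 2 of 10 were higher (0.33), of the EGF family 2 of 4 (1.14), of the cell cycle genes 1 of 2 (1.03), and of the ciliated markers 2 of 3 (1.09), with none lower, and 0 of 3 fibroblast markers passed (-0.09).

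The 43 Sftpc-led members, in which *Sftpc* stood well above the level of endothelial cells, numbered 5, 2, 8, and 4 in control libraries 1 to 4 and 17 and 7 in Zip8AEC2 libraries 1 and 2. Their levels are set beside those of Sftpc-led reference cells per 1000000 UMIs other than *Scgb1a1* and *Sftpc*, as a description without a test, since the kinds were drawn after the values were seen and the cells in each sum are few. *Krt18* was at 504, 927, 1341, 722, 565, and 425 per 1000000 in these members, in the order of the libraries, and at 179.6 to 208 in the reference cells, without overlap. *Krt7* was at 72.6 to 481 against 48.1 to 59.0, again without overlap, but *Krt19* was at 31.1 to 492 against 27.2 to 34.7, with 2 libraries inside the reference range. Of 30 transitional genes, 29 had a higher mean in Sftpc-led members, with a median log2 ratio of 1.62, beside 4193 of 7196 genes and a median of 0.09 over all genes tested. Of the 30, 4 were higher without overlap of the libraries, beside 94 of the 7196. *Lgals3*, *Anxa1*, and *Cdkn1a*, chosen after their values were seen, averaged 418, 375, and 305 per 1000000 in these members and 47.3, 32.9, and 82.6 in the reference cells. The ranges overlapped for *Lgals3* (34.3 to 773 against 35.7 to 74.5) and for *Cdkn1a* (103 to 474 against 38.2 to 165). The *Lgals3* mean rests largely on few cells, since 2 of the 43 members held 94 and 71 of the 347 *Lgals3* UMIs, and the median Sftpc-led member held 2 *Lgals3* UMIs and 1 *Cdkn1a* UMI. The AEC1 list had 23 of 26 genes with a higher mean (median log2 ratio 0.58) and the ciliated markers 11 of 12 (median 1.87), so the transitional genes were not alone in this. The neuroendocrine gene *Calca* was found in 1 Sftpc-led member, a cell of control library 2 with 37 UMIs of it that was called a doublet. What part these markers have in it was not tested. The ligand gene *Areg* ranged from 68.7 to 1194 in these members and from 35.1 to 86.7 in the reference cells, with overlap, and 159 of its 358 UMIs in Sftpc-led members came from a single cell of control library 3. The median Sftpc-led member held 1 *Areg* UMI.

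AEC2 genes were also measured in the Sftpc-led members. Of these, 3 of 26 AEC2 genes and 2 of 26 lipid genes had a higher mean in them than in Sftpc-led reference cells, and the median log2 ratios were -0.40 and -0.34, smaller in size than those of all members against matched cells. *Hc* averaged 1225 per 1000000 in them and 1975 in the reference cells, with the ranges of 671 to 1897 and 1804 to 2155 overlapping. *Lamp3* ranged from 803 to 2536 per 1000000 against 1901 to 2112. *Ager* averaged 1503 against 1395. *Scgb3a2* was at 103 to 179 per 1000000 against 82.5 to 240.2, so this club cell gene lay within the reference range here. Single cells varied widely. The most *Krt8* in any member, 222 UMIs of 42743, was in a Sftpc-led cell of control library 3 that also held 132 *Krt18*, 61 *Krt19*, 94 *Lgals3*, 33 *Sfn*, and 1970 *Sftpc* UMIs. The median Sftpc-led member held 5 *Krt8* UMIs and 1 *Cldn4* UMI, and 11 of 43 held 10 or more of *Krt8*.

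**Figure D4:**
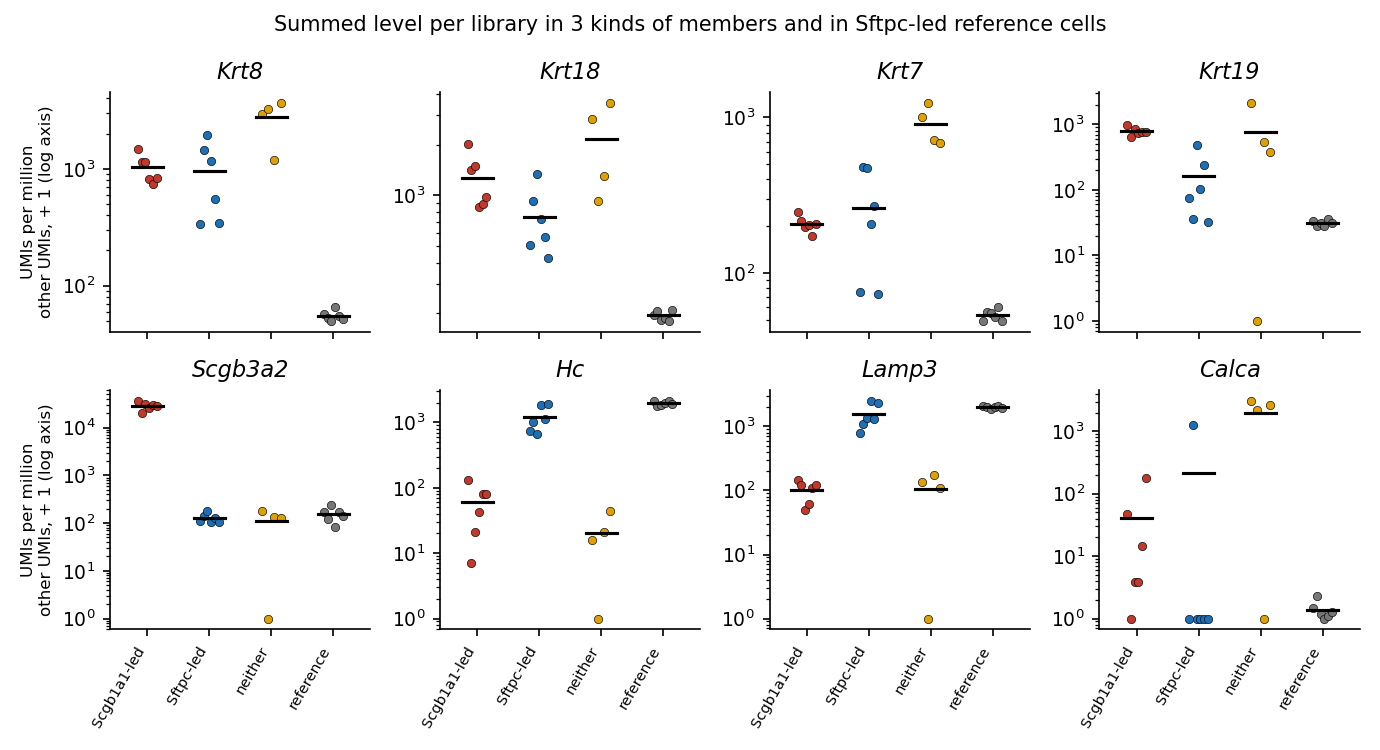
UMIs of 8 genes per 1000000 UMIs other than Scgb1a1 and Sftpc, plus 1 (y axes, log scale), summed over Scgb1a1-led members, Sftpc-led members, members led by neither, and Sftpc-led reference cells, with 1 point per library and a bar at the mean; control libraries 3 and 4 held no members led by neither. Krt18 is above the reference cells in each kind, whereas Scgb3a2 is high in the Scgb1a1-led members alone and Hc in the Sftpc-led members and the reference cells.

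The 18 members led by neither came from control libraries 1 and 2 (7 and 1 cells) and Zip8AEC2 libraries 1 and 2 (6 and 4 cells). *Krt8* stood at a mean of 2756 per 1000000 other UMIs against 1027 in Scgb1a1-led and 966 in Sftpc-led members, and *Krt7* at 912 against 206 and 262. *Krt19* averaged 766 in them and 788 in Scgb1a1-led members. *Lamp3* averaged 103 and *Hc* 19.4 per 1000000 in them, against 101 and 59.4 in the Scgb1a1-led members. Of these 18 cells, 5 held 10 or more UMIs of *Calca*, the calcitonin gene expressed by neuroendocrine cells of the airway. With 4 Scgb1a1-led cells and 1 Sftpc-led cell, 10 members did so. No reference cell held 10 *Calca* UMIs, and the most in any was 4. *Calca* stood at 332, 157, and 158 CPM in members of control libraries 1 and 2 and Zip8AEC2 library 2, at 1.43 to 7.62 in those of the other libraries, and at 1.03 or less in matched cells. A cell of control library 1 held 400 *Calca* and 130 *Resp18* UMIs of 33985, and was called a doublet. A different cell of the same control library held 129 *Krt15* UMIs and no *Krt5*.

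The genotypes were compared within the members to ask whether deletion of *Zip8* in AEC2s went with a change in these cells. *Slc39a8*, the targeted gene, did not separate them. It averaged 34.7 ± 12.3 CPM (SD, n = 4) in the members of the control libraries and stood at 43.0 and 36.2 in those labelled Zip8AEC2, inside the control range of 24.5 to 52.3. The log2 fold change was 0.32 (95% interval -0.20 to 0.84, edgeR adjusted p = 0.979), and the exact permutation test, two-sided over all 15 choices of 2 of 6 libraries, gave p = 0.667. *Slc39a8* did not separate the Sftpc-led reference cells either, at 314.9, 296.8, 291.9, and 298.5 per 1000000 UMIs other than *Scgb1a1* and *Sftpc* in control libraries 1 to 4 and 299.1 and 296.3 in Zip8AEC2 libraries 1 and 2. *Esr1*, the estrogen receptor gene from which the hormone-binding part of CreER derives, was chosen after its values were seen and ran as labelled in those cells. A UMI of it was found in 1 of 1074, 0 of 228, 1 of 488, and 0 of 1697 cells of the controls and in 212 of 914 and 188 of 727 cells of the others. Whether those UMIs come from the transgene was not tested. Directions below are between libraries as labelled. Counts of the 3′ end of a transcript do not show which exons it holds.

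Members made up 1.85%, 1.39%, 2.57%, and 1.07% of gated cells in control libraries 1 to 4 and 4.48% and 2.75% in Zip8AEC2 libraries 1 and 2. The means were 1.72% ± 0.649 (SD, n = 4) and 3.61%, without overlap, and the exact permutation p was 0.067, the smallest that 15 choices can give. That share moved with the depth at which cells were read. With every gated cell thinned to 5000 UMIs, and 233, 115, 235, 720, 225, and 50 shallower cells left out, the shares were 0.712%, 0.749%, 0.355%, and 0.163% in the controls and 0.703% and 0.431% in the others. The means of 0.495% ± 0.284 (SD, n = 4) and 0.567% differed by 0.0720 percentage points (exact permutation test, p = 0.80), and the groups overlapped. By kind and at full depth, the Scgb1a1-led members averaged 1.28% of gated cells in the controls and 2.82% in the libraries labelled Zip8AEC2, without overlap, and the Sftpc-led members 0.316% and 0.549%, with overlap. After thinning, members with 10% or more *Scgb1a1* averaged 0.235% and 0.299%, with overlap (post hoc exact permutation test, p = 0.533). The gate was applied before thinning, so these shares are at a common depth for *Krt8* and *Cldn4* but not for the gate genes. Of kept cells with 10% or more *Scgb1a1*, 2.63% to 21.0% passed the gate in the controls and 27.0% and 16.4% in Zip8AEC2 libraries 1 and 2. Within that limit, the difference by genotype after thinning was not detectable with 4 to 16 members per library.

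**Figure D5:**
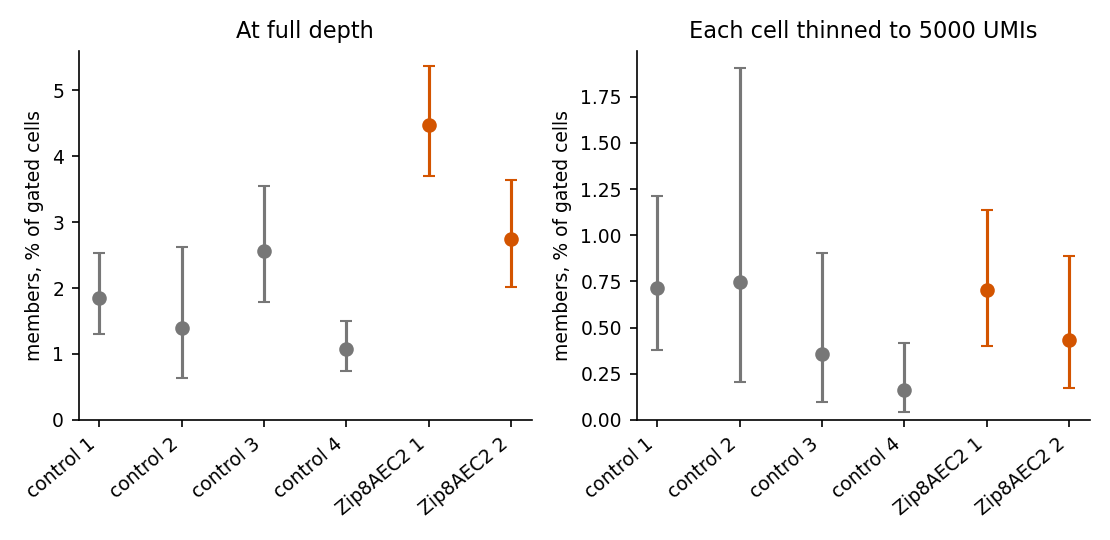
Members as a share of gated cells (y axes, %) in each library, at full depth (left) and with each cell thinned to 5000 UMIs (right); bars are exact 95% binomial intervals, which cover counting error only, with control libraries in grey and Zip8AEC2 libraries in orange. At full depth the Zip8AEC2 libraries, at 4.48% and 2.75%, lie above all controls, and after thinning, at 0.703% and 0.431%, they lie within the control range.

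Few genes passed a test between the genotypes within members. Of 8066 genes, 2 passed (0.0248%; edgeR quasi-likelihood test, adjusted p under 0.05), both lower in the libraries labelled Zip8AEC2, and 398 had an unadjusted p under 0.05. The count of lower genes was 0 without Zip8AEC2 library 1, 1 without control library 3, and 3 without control library 1, and 4 genes were higher without Zip8AEC2 library 2. Without likely doublets 0 genes passed, with *Reg3g* at -1.51 and *Dcn* at -1.61 (edgeR adjusted p = 0.60 and 0.215). With the replicate number as a block 1 gene was lower and 1 higher, and *Dcn* no longer passed (edgeR adjusted p = 0.112). *Reg3g* averaged 1355 ± 216 CPM (SD, n = 4) in the controls and was at 480.1 and 441 in the others (log2 fold change -1.56, 95% interval -1.94 to -1.18, edgeR adjusted p = 0.0138). *Dcn* averaged 82.6 ± 12.2 CPM (SD, n = 4) and was at 26.1 and 26.7 in the others (log2 fold change -1.68, 95% interval -2.08 to -1.29, adjusted p = 0.0138). Few members carried *Reg3g*, with 10 or more UMIs in 12, 1, 8, and 8 cells of control libraries 1 to 4 and in 18 and 7 cells of Zip8AEC2 libraries 1 and 2, and in control library 2 a single cell held 518. In matched cells, *Dcn* was at 39.8 to 53.9 CPM in the controls and at 16.4 and 30.6 in the others, the same order as in members, and *Reg3g* was at 1.11 to 4.51 throughout. *Chil1*, a chitinase-like protein named in the study, was at 61.3 to 249 CPM in members of the controls and at 1139.9 and 215 in the others (edgeR adjusted p = 0.906), and *H2-K1* averaged 359 and 353 CPM. *Krt8*, a gene of the rule, averaged 797 CPM in the controls and 520.0 in the others, given as a description.

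Whether the genotype difference itself differed between members and matched cells was tested as an interaction. Of 7196 genes, 1 passed (0.0139%), *Hbb-bs*, a hemoglobin chain of red cells, with a log2 interaction of -5.97 (edgeR adjusted p = 0.00826). Members held 1015 CPM in control library 4, 3.56 to 61.5 in the other controls, and 6.89 and 9.05 in the libraries labelled Zip8AEC2. Matched cells held 8.21, 24.9, 1.13, and 99.6 CPM in the controls and 133 and 7.07 in the others. The call rested on control library 4 and Zip8AEC2 library 1, and without either of them 0 genes passed. Without control library 3, or Zip8AEC2 library 2, 3 genes were lower. The interactions of *Slc39a8*, *Reg3g*, and *Krt18* were 0.38 (95% interval -0.10 to 0.86), -1.44 (-2.61 to -0.27), and -0.49 (-0.99 to 0.00), and none passed over all genes.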

How the data were processed

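The authors used Cell Ranger on mm10 to obtain UMI totals for each gene in every barcode (Seurat is also named in the processing notes). The deposited matrices hold raw counts, whole numbers of UMIs without normalization. Depth per library was 93852253 to 118771907 UMIs. The member rule and the 27 gene lists were chosen with earlier results of these data known.

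UMIs of the 274 members and of 1 matched reference cell per member were summed per library (13290026 and 5494736 UMIs) and fitted with edgeR 4.0.16 (R 4.3.3; filterByExpr, TMM, glmQLFit, Benjamini-Hochberg, adjusted p under 0.05), with the library as a block for arms and interaction. The 10 rule genes were left out of the fits and are described without a p-value. Thinned shares, with the gate applied before thinning, were compared by exact permutation over 15 choices of libraries. Doublets were called with Scrublet in scanpy 1.11.5 at 0.8% per 1000 barcodes and kept in the main analysis. The fits were tested on simulated data with known changes.

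Genes were named by rule: in each direction the 12 of smallest adjusted p that moved alike in all 6 libraries; up to 5 per direction for genotype and interaction; genes the study names for AEC2s; the rule genes; the 4 with the smallest p per list; and, for markers of other cells, the most abundant and the first 3. Endothelial and fibroblast cells for the background of free RNA held a UMI of at least 3 of 4 markers, of fewer than 3 gate genes, and under 10% *Scgb1a1*. Alternatives included DESeq2 1.42.0, other normalizations, filters, depths, and matching, and leaving out each library. Gene coordinates are from GENCODE M21 on mm10. The summed level of the neuroendocrine marker list and 1 of its genes are not reported here.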

Additional observations from a re-analysis of the deposited data

Results flagged for a closer look

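Among 101 groups of 4 control values in members, 4 had a library far from the rest by Dixon's criterion, which chance alone gives in about 5% of groups. *Hbb-bs* stood at 1015 CPM in members of control library 4 and at 3.56 to 61.5 in the other controls. *Mid1ip1* stood at 56.3 CPM in control library 3 against 78.6 to 82.3, and *Ifitm3* at 134 CPM in the same library against 202 to 215. *Cldn4*, a gene of the rule, stood at 105 CPM in control library 1 against 52.3 to 57. The genotype effect on *Hbb-bs* differed between members and matched cells, with a log2 interaction of -5.97 by the edgeR quasi-likelihood test.

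Cells outside the type 2 gate with 10% or more *Scgb1a1* also held the UMIs of *Krt8* and *Cldn4* that make a member. They did so in 29.4% and 38.9% of such cells in Zip8AEC2 libraries 1 and 2 and in 5.55% to 16.7% in the controls (exact permutation test, two-sided, p = 0.067, the smallest possible). Their median depths were 15813 and 58542 UMIs in the libraries labelled Zip8AEC2 and 2875 to 6278 in the controls. With each cell thinned to 5000 UMIs, the shares were 5.05% and 3.07% against 1.43% to 4.73% (p = 0.733 by the same exact test), with overlap. Both tests are post hoc, since the 10% line was set after the values were seen.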

How the results depend on the processing

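The 1578 higher and 1597 lower genes of the comparison with matched cells became 2368 higher without a filter on low counts, 838 and 966 with at least 2 *Cldn4* and 4 *Krt8* UMIs, 6 and 22 without cells of airway markers (12 members left), 304 and 344 after thinning to 5000 UMIs, 170 and 205 with matching within 10% of total UMIs, 2750 and 2693 without matching, 952 and 1012 in the control libraries alone, and 423 and 4987 with scaling to total UMIs. The last, and matching within 10%, were chosen after seeing the data. The stricter member rule, leaving out airway markers, matching within 10%, and the controls alone keep fewer cells or libraries; the causes were not tested further. Directions turned with scaling to total UMIs for *Rps27l* (-0.0205), *Calr* (-0.0557), *Atf4* (-0.188), *Ccnd1* (-0.0999), and *Mgp* (-0.244), without matching for *Mgp* (-0.459) and *Dcn* (-0.207), and with matching within 10% for *Dcn* (-0.223). *Hbb-bs*, at 0.27, was -1.89 without control library 4, -1.54 with 3 matched cells per member, -1.92 without matching, -3.27 in the Zip8AEC2 libraries alone, and -0.407 with scaling to total UMIs. It passed as lower without control library 4, without matching, and in the Zip8AEC2 libraries alone (edgeR adjusted p = 0.0274, 0.000413, and 0.00145). Of the other values of named genes under the alternatives, 1764 kept direction and side of the threshold, 75 no longer passed, and 6 newly passed. Without cells of airway markers, 23 no longer passed and 11 were unchanged. With matching within 10% of total UMIs, 18 no longer passed and 53 were unchanged.

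Between genotypes, leaving out each library in turn gave 0 to 3 lower and 0 to 4 higher genes. DESeq2 gave 6 lower, no filter 76 lower and 46 higher, and 0 were lower without likely doublets, with at least 2 *Cldn4* and 4 *Krt8* UMIs, without cells of airway markers, or after thinning. With the replicate number as a block there was 1 gene lower and 1 higher. At an unadjusted p under 0.05 there were 398 genes. Same-numbered libraries had correlations of -0.165 and 0.19 in their deviations from the group mean. With 2 Zip8AEC2 libraries these deviations mirror each other, so control library 1 gave 0.165 with Zip8AEC2 library 2. The check is therefore weak, and the numbers were not taken as pairs. For the interaction, leaving out a library gave 0 to 3 lower and 0 to 2 higher genes, and no filter gave 23 and 15. With DESeq2, at least 2 *Cldn4* and 4 *Krt8* UMIs, no airway markers, thinning, 3 matched cells, matching within 10%, or no replicate block, 0 were lower. The difference in the thinned share, 0.0720 percentage points, was 0.268 when thinned to 8000 UMIs (exact permutation p = 0.467). With a library left out it ran from -0.0641 without Zip8AEC2 library 1 to 0.208 without Zip8AEC2 library 2, and was -0.0385 without control library 4. At 5000 UMIs a library held 4 to 16 members, so small differences cannot be seen.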
